A study of Mus musculus with 6 samples.

Results

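The histone genes of mouse hepatocytes were described 4 days after delivery of Sox4, a transcription factor of the SOX family. Members were every gene whose symbol follows the naming scheme of core and linker histones, which gave 83 of the 53599 genes in the count table. By name, 67 were replication-dependent genes (those numbered within the H1, H2A, H2B, H3 and H4 clusters), 12 were variant genes and 4 were pseudogenes. RNA-seq was performed on 6 libraries, 3 from the empty vector (EV) group and 3 from the Sox4 group. EV animals received AAV8-TBG-Cre, an adeno-associated virus carrying Cre recombinase alone, and Sox4 animals received AAV8-TBG-HA-Sox4-P2A-Cre, which carries HA-tagged mouse Sox4 and Cre in a single transcript. All animals are labelled WT, and by the study's methods they were homozygous Rosa-LSL-Cas9-EGFP mice on C57BL/6J, several weeks old at injection. Both groups therefore carried the Cas9-EGFP allele and received Cre. The TBG promoter is active in hepatocytes, so other liver cells were not the target of either vector. Hepatocytes were released from the liver with liberase and enriched on Percoll, a density medium. The labels give each library as a separate sample, and p-values measure the spread between these libraries.

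Histones are the proteins that DNA wraps around. Replication-dependent histone mRNAs are made mainly in S phase, when new DNA needs packaging, and end in a stem-loop in place of a poly(A) tail, although some of these genes also give polyadenylated transcripts in differentiated cells. Most variant genes lie outside that scheme: their mRNAs carry poly(A) tails and are made throughout the cell cycle. H3.3, encoded by H3f3a and H3f3b, and H2A.Z, encoded by H2az1 and H2az2, are placed in chromatin outside replication by dedicated chaperones, and the linker histone H1.0, encoded by H1f0, is typical of differentiated cells that no longer divide. Adult hepatocytes are mostly quiescent. The sources used here do not say whether RNA with poly(A) tails was selected. Of 21 RNAs without poly(A) tails listed for comparison, 18 were in the table and none passed the expression filter, with 6, 9 and 7 counts in all in the EV libraries and 13, 7 and 7 in the Sox4 libraries.

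Total counts ranged from 15090629 to 16964860 per library. Sox4 itself had 2, 0 and 3 counts in the EV libraries and 21697, 15097 and 11816 in the Sox4 libraries, so every library matched its label for the delivered gene. The summed level of 9 hepatocyte markers was 127368 to 149882 CPM in EV and 86851 to 100121 in Sox4. CPM is the count a gene would have among 1000000 counts, here of a library size adjusted as given below. The ratio of Sox4 to EV for this sum was 0.653, and 0.904 with library size alone. In raw counts the groups overlapped, at 1652945 to 1983662 in EV and 1725996 to 1975705 in Sox4, so the gap in CPM depends on the scaling. Of 12691 genes tested, 29.0% were higher in Sox4 and 26.0% lower at an adjusted p under 0.05. Groups did not overlap in CPM for 63.0% of them, so a gap between groups is common in these data. CPM are given on library sizes adjusted with TMM, the trimmed mean of M-values, which left the median gene at a log2 fold change of 0.04. With library size alone it was 0.51, and log2 fold changes of tested histone genes were then higher too.

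The sequences just before the start of transcription are shown for 6 members that carry the results below: the H3.3 pair, whose genes differed in how far they rose, the linker genes H1f0 and H1f2, which fell, and H1f10 and H2bu2, which were near or at 0 in EV. Each is the 120 bases before the start, 5′ to 3′ on the gene's own strand, from RefSeq on GRCm38.p6. The counts were made on GRCm39, so these coordinates locate the RefSeq windows and are not those of the counts. They are chr1:180813606-180813725 (minus strand, H3f3a), chr11:116024505-116024624 (minus, H3f3b), chr15:79028092-79028211 (plus, H1f0), chr13:23738687-23738806 (plus, H1f2), chr6:87981483-87981602 (minus, H1f10) and chr11:58948791-58948910 (plus, H2bu2). Capitals mark, on either strand, the TATA box TATAAA, the NF-Y box CCAAT and the octamer ATTTGCAT.
H3f3a: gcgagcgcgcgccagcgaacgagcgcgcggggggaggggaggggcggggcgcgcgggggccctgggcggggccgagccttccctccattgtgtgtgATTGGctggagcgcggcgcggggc
H3f3b: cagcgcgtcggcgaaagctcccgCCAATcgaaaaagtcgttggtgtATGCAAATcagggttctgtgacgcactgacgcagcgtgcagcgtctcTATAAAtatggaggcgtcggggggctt
H1f0: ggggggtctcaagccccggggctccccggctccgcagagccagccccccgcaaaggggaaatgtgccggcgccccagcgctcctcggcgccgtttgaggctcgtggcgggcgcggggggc
H1f2: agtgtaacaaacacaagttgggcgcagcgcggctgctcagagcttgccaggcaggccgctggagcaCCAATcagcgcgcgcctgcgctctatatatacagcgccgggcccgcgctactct
H1f10: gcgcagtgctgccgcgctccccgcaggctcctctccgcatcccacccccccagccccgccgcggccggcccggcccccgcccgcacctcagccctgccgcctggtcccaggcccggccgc
H2bu2: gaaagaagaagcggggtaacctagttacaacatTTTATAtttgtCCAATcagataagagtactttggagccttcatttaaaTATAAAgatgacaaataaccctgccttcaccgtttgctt

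H3f3b and H2bu2 each held a TATAAA box together with CCAAT, the box bound by NF-Y. H3f3b also held ATTTGCAT, the octamer bound by POU factors. H3f3a and H1f2 held CCAAT alone, and H1f0 and H1f10 held none of the 3 in the stretch shown. Over the full window of 250 bases before to 50 after the start, 70 members had an entry, with 61 windows for replication-dependent genes and 10 for variant genes. CCAAT was found in 85.2% of the replication-dependent windows, in 60% of the variant windows and in 37.4% of 32851 windows of all genes. Every H1, H2A, H2B and H3 window of the replication-dependent genes held it, against 25% of the H4 windows. TATAAA was found in 57.4%, 20% and 13.6% of the same 3 sets. ATTTGCAT was found in 21.3%, 10% and 1.74%, and within the replication-dependent genes only in H2A (35.3%) and H2B (43.8%) windows. Of 2 short sequences of the kind SOX factors bind, AACAAAG was found in 14.8% of replication-dependent windows and 5.85% of all windows, and AACAATG in none of the former and 3.78% of the latter. These are matches of letters on either strand, with no measurement of binding. Windows of neighbouring genes can overlap, such as those of H2ac8 with H2bc8 and of H2ac12 with H2bc12, so some sites are counted more than once.

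In the Sox4 libraries the tested variant genes were mostly higher, and the most abundant linker histone genes were lower. Of the 83 members, 19 had no count in any library, 42 had counts but stayed below the filter, and 22 were tested, 15 replication-dependent and 7 variant. Genes without a count ranged from 0.0% (such as H2ac1) to 100% (H2ac19 and H3c14) in 100-base transcript windows shared with other genes. A count of 0 in such a shared gene need not mean that RNA was absent, as the treatment of multi-mapping reads is not given. Past the threshold of the edgeR quasi-likelihood test, 10 of the 22 were higher in Sox4, against 29.0% of all genes tested, and 3 were lower, against 26.0%. The variant genes were 5 higher, 1 lower and 1 not past the threshold, and the replication-dependent genes 5 higher, 2 lower and 8 not past it. The median log2 fold change was 0.61 for the 7 tested variant genes and -0.07 for the 15 tested replication-dependent genes, beside 0.04 for all genes tested. With library size alone these medians were 1.08, 0.41 and 0.51, so the replication-dependent median stayed just under that of all genes while its sign turned. Of the 22, 7 passed the filter through the Sox4 libraries alone (H1f10, H2ac6, H2bc8, H2bc9, H2bu2, H3c4 and H4c11) and 1 through the EV libraries alone (H3c15). A filter passed through the group where a gene is high favours genes that differ, and 4 of the 5 replication-dependent genes called higher were among them. So was H1f10, 1 of the 5 variant genes called higher. Of the 8 replication-dependent genes that passed in both groups, 1 was higher, 1 was lower and 6 were not past the threshold. Their median log2 fold change was -0.16. The 6 variant genes that passed in both groups were 4 higher, 1 lower and 1 not past it, with a median of 0.51.

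**Figure D1:**
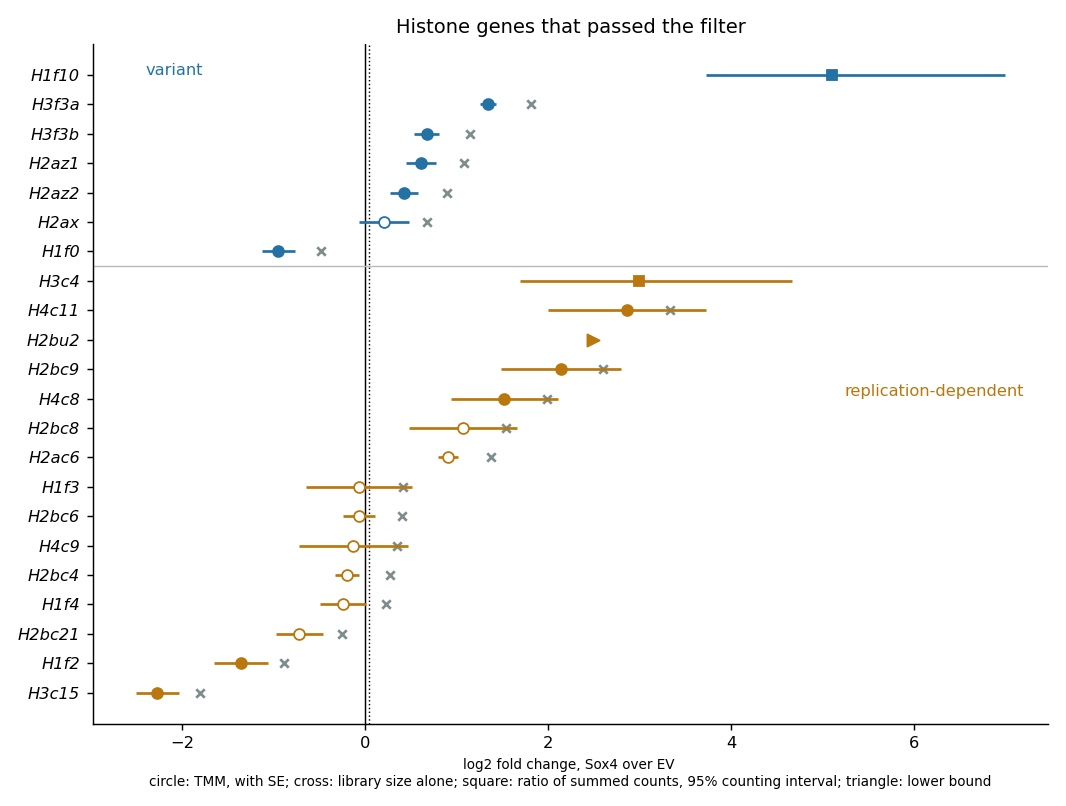
Log2 fold change of Sox4 over EV for the 22 tested histone genes, variant genes in blue and replication-dependent genes in orange. Circles are TMM-scaled values with SE (filled where the adjusted p is under 0.05), crosses are values with library size alone, squares with 95% counting intervals are ratios of summed counts where EV held 3 counts or fewer per library, the triangle is a lower bound, and the dotted line is the median of all genes tested (0.04); most variant genes lie to its right, while H1f0, H1f2 and H3c15 lie to its left.

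H3.3 gave most of the rise. H3f3a had 1517, 1523 and 1538 counts in EV and 6522, 5425 and 5293 in Sox4, or 115 ± 2.72 CPM against 291 ± 31.6 (SD, n = 3). The EV libraries lay within a few percent of each other and every Sox4 library lay far above them. The log2 rise of H3f3a was 1.34 with an SE of 0.09 (adjusted p = 1.91e-05), the smallest adjusted p of the histone genes. H3f3b, which encodes the same protein from another gene, had 3804, 4439 and 3689 counts in EV and 10778, 8614 and 8876 in Sox4. Again no EV library reached the lowest Sox4 library, though 63.0% of all genes tested had groups that did not overlap in CPM. It rose by 0.67 (SE 0.13, adjusted p = 0.00319), from 299 ± 35.0 to 477 ± 55.3 CPM. Both rises were larger with library size alone, at 1.81 and 1.14.

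Because the pair was read in the same libraries, their ratio does not depend on scaling. H3f3a made up 28.5%, 25.5% and 29.4% of the counts of both genes in EV and 37.7%, 38.6% and 37.4% in Sox4. The groups did not overlap, and the difference of about 10 points in the means (27.8% ± 2.03 against 37.9% ± 0.666) was several times the SD in either group. With 3 libraries against 3, an exact permutation test of a single value can give no two-sided p below 0.1, so shares are given with their spread and no p. Per kilobase of exon, H3f3b stood at 100.6 CPM and H3f3a at 32.8 in EV, and at 160.2 and 83.0 in Sox4. H3f3a shares 5.6% of its 100-base windows with other genes, mainly H3f3c, and overlaps 2 genes on the opposite strand, so a small part of its counts is uncertain. H3f3c reached no more than 12 counts in any library and was not tested, and H3f4, the remaining H3 variant gene, had none. Both were classed as variant by name, but GENCODE M21 lists them as pseudogenes.

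**Figure D2:**
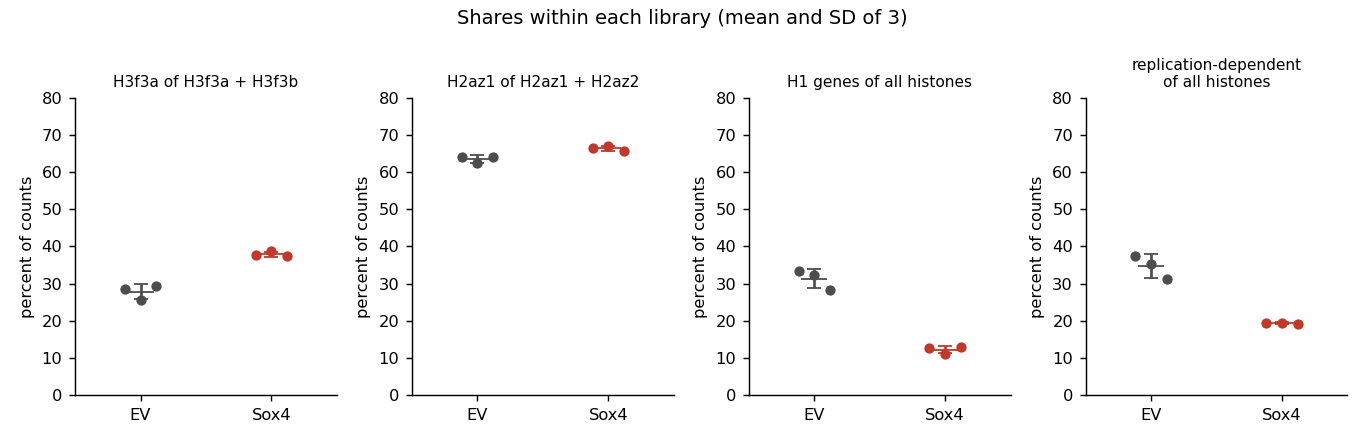
Percent of counts within each library for 4 pairs of sets, EV in grey and Sox4 in red, with the mean and SD of 3 libraries. H3f3a of the H3.3 pair rose from 27.8% to 37.9% and H2az1 of the H2A.Z pair differed by less, at 63.6% and 66.5%, while H1 genes of all histone counts were 31.3% and 12.2% and replication-dependent genes were 34.6% and 19.4%.

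Both H2A.Z genes were higher, H2az1 more firmly than H2az2. H2az1 had 509, 442 and 424 counts in EV and 1193, 1060 and 864 in Sox4, with no overlap between groups. The mean level was 34.5 ± 4.30 CPM in EV and 52.6 ± 8.12 in Sox4, and the gene rose by 0.61 (SE 0.17, adjusted p = 0.00554). Other genes, Gm8203 among them, share 13.0% of its windows. H2az2 had 284, 267 and 237 counts in EV and 600, 520 and 449 in Sox4, or 19.8 ± 2.37 against 26.5 ± 3.66 CPM. In CPM the lowest Sox4 library (22.8) lay just above the highest EV library (21.9). H2az2 rose by 0.42 (SE 0.15, adjusted p = 0.0377), and the call was lost without EV 2, EV 3, Sox4 1 or Sox4 2, with adjusted p from 0.0870 to 0.141. H2az1 made up 64.2%, 62.3% and 64.1% of the counts of the pair in EV and 66.5%, 67.1% and 65.8% in Sox4, so the ratio of the genes moved by about 3 points.

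H2ax, whose protein is phosphorylated at DNA breaks, did not pass the threshold. It had 96, 131 and 88 counts in EV and 220, 186 and 135 in Sox4, or 7.91 ± 1.83 against 9.12 ± 2.12 CPM. The groups overlapped in CPM, and the log2 fold change was 0.21 (SE 0.27, adjusted p = 0.481). With library size alone it was 0.68 (adjusted p = 0.0285), so its call rests on the scaling. No promoter entry was found for H2ax or for H2bc4.

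**Figure D3:**
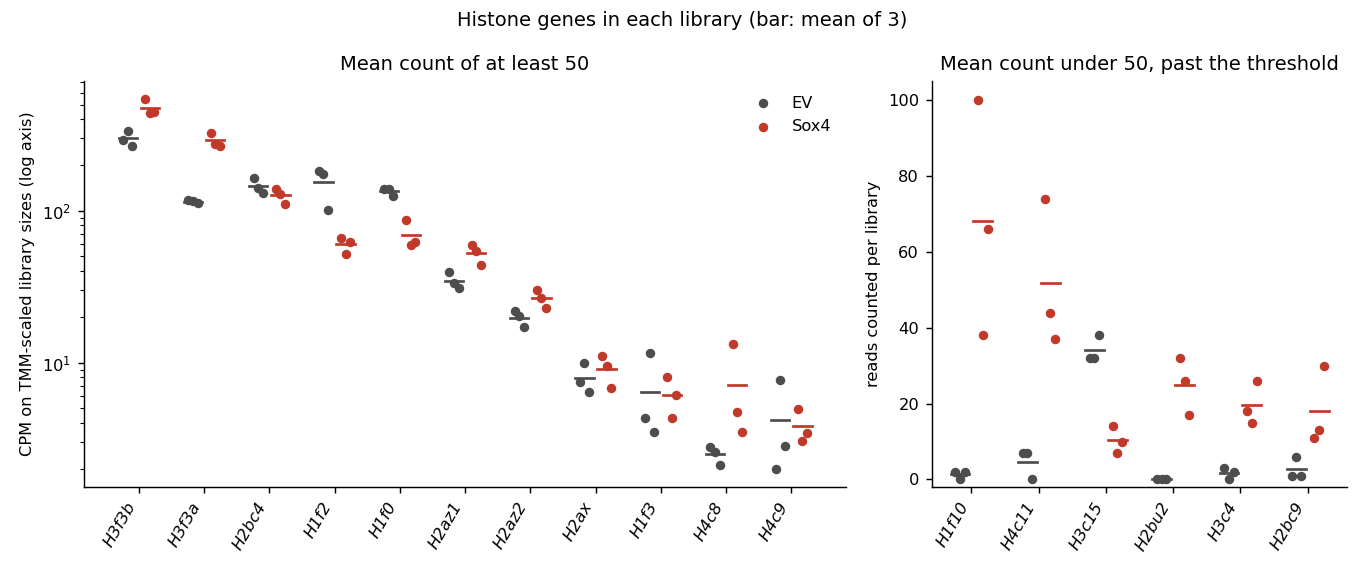
Left, CPM on TMM-scaled library sizes (log axis) of the 11 tested histone genes that averaged 50 or more counts; right, reads counted per library for the 6 others past the threshold; points are libraries (EV grey, Sox4 red) and bars are means of 3. H3f3a, H1f2 and H1f0 show groups well apart, H1f3 and H4c9 each have 1 EV library (EV 2) above the rest, and H4c8 has 1 Sox4 library (Sox4 1) above the rest.

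The linker histones moved in opposite directions. H1f0 had 1808, 1838 and 1719 counts in EV and 1737, 1164 and 1230 in Sox4. In raw counts Sox4 1 fell between EV libraries, but in CPM (134.6 ± 8.43 against 69.6 ± 15.2) the groups did not overlap. H1f0 fell by 0.95 in log2 units (SE 0.18, adjusted p = 5.93e-04), and by 0.48 with library size alone (adjusted p = 0.0201). In bulk samples such as these, fewer cells of a type and less RNA per cell cannot be told apart.

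H1f2 encodes H1.2, a replication-dependent linker histone whose mRNA is also found in cells that do not divide. It had 2386, 2315 and 1391 counts in EV and 1314, 1022 and 1220 in Sox4. EV 3 was the lowest EV library and still lay above every Sox4 library. H1f2 fell by 1.36 (SE 0.30, adjusted p = 7.66e-04), from 153.6 ± 45.7 to 59.96 ± 7.02 CPM, and by 0.89 with library size alone (adjusted p = 0.00648). The fall was of the same order as that of H1f0, and H1f0 made up 42.4%, 42.5% and 54.2% of all H1 counts in EV and 52.0%, 49.6% and 45.9% in Sox4, with overlapping groups.

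H1f10, which encodes the variant linker H1.10, was nearly absent from EV, with 2, 0 and 2 counts, and had 100, 38 and 66 in Sox4. The summed counts, scaled for depth, differed 34.4-fold (95% counting interval 13.2 to 127), and the adjusted p was 1.97e-04. Even so H1f10 made up only 2.36% ± 0.692 of H1 counts in Sox4. It overlaps 1 gene on the same strand and 1 on the opposite strand in GENCODE M21, and the strand setting of the counting is not given in the sources used here.

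The other H1 genes gave no call. H1f3 had 56, 152 and 48 counts in EV and 160, 84 and 121 in Sox4, with EV 2 above the other EV libraries. Its log2 fold change was -0.07 (SE 0.58, adjusted p = 0.911) and turned to 0.64 without EV 2 and to 0.41 with library size alone. H1f4 had 11 to 19 counts in EV and 15 to 21 in Sox4 (adjusted p = 0.635), and overlaps H2bc6 on the genome. H1f1, H1f5 and H1f6 stayed below the filter, the variant H1f8 had 4 counts in all, and H1f7 and H1f9 had none.

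Among H2B genes, H2bc4 was by far the most abundant and was not past the threshold. It had 2117, 1845 and 1808 counts in EV and 2778, 2523 and 2172 in Sox4, or 145 ± 16.4 against 126 ± 14.8 CPM. The groups overlapped in CPM, and the fitted difference of -0.20 in log2 units (SE 0.14, adjusted p = 0.228) turned to 0.27 with library size alone (adjusted p = 0.110). Its GENCODE model has 2 exons, unlike the single exon of most replication-dependent genes, and 25.4% of its windows are shared with other genes, H2bc8 among them. Per kilobase of exon H2bc4 stood at 125.3 CPM in EV and H1f2 at 98.4, close to the 100.6 of H3f3b, and these 2 replication-dependent genes together made up 93.7%, 88.4% and 91.8% of the counts of their class in EV.

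H2bu2, an H2B gene outside the main cluster, had no count in the 3 EV libraries and 32, 26 and 17 counts in Sox4. Its level of 1.26 ± 0.375 CPM in Sox4 was at least 5.60-fold higher than the mean EV floor of 3 counts per library (adjusted p = 6.58e-04). H2bc9 had 1, 6 and 1 counts in EV and 11, 13 and 30 in Sox4. The groups did not overlap, but the call (log2 fold change 2.14, SE 0.65, adjusted p = 0.0345) was lost without EV 1, EV 3, Sox4 2 or Sox4 3, with adjusted p from 0.0517 to 0.134. H2bc21, H2bc6 and H2bc8 had 2 to 50 counts per library and adjusted p of 0.0814, 0.875 and 0.138. H2ac6, the single H2A gene of this class to be tested, had 10, 10 and 9 counts in EV and 24, 27 and 30 in Sox4. Its groups stood apart, but the log2 fold change of 0.90 (SE 0.11) had an adjusted p of 0.0639, and 1.37 (adjusted p = 0.00921) with library size alone.

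The replication-dependent H3 genes had few counts, and those tested moved in opposite directions. H3c15 had 32, 32 and 38 counts in EV and 14, 7 and 10 in Sox4, with no overlap. It fell by 2.27 (SE 0.23, adjusted p = 7.32e-04), from 2.55 ± 0.181 to 0.522 ± 0.173 CPM. Other genes, Gm20634 among them, share 61.6% of its windows, so reads could be divided between genes, and their origin is uncertain. H3c4 had 3, 0 and 2 counts in EV and 18, 15 and 26 in Sox4, a ratio of summed counts of 7.95 (95% counting interval 3.22 to 25.4, adjusted p = 0.00594). All replication-dependent H3 genes together gave 0.847% of H3 counts in EV and 0.412% in Sox4, so nearly every H3 count in either group came from an H3.3 gene. Replication-dependent H3 genes share 20.4% (H3c4) to 100% (H3c14) of their windows with other genes, so some of their reads may be missing.

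H4 has no variant gene among the members, and its genes differed from each other. H4c11 had 7, 7 and 0 counts in EV and 74, 44 and 37 in Sox4, and rose by 2.86 (SE 0.86, adjusted p = 0.00524). H4c8 had 36, 34 and 29 counts in EV and 263, 93 and 69 in Sox4, with Sox4 1 far above the other Sox4 libraries. Its log2 fold change was 1.52 (SE 0.58, adjusted p = 0.0266), and 0.73 without Sox4 1 (adjusted p = 0.0685). The call was also lost when any EV library was left out, with adjusted p from 0.0685 to 0.0931. H4c9 had 26, 101 and 39 counts in EV and 98, 60 and 68 in Sox4, with EV 2 again the high EV library, and its fitted difference of -0.13 (SE 0.60, adjusted p = 0.831) became 0.64 without EV 2 and 0.35 with library size alone. H4c8 shares 38.5% of its windows, H4c11 19.0% and H4c9 15.1%, mostly with each other or with further H4 genes.

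Outside H2bc4 and H1f2 the replication-dependent genes contributed few counts. The other 65 summed to 304, 548 and 285 counts in EV and 999, 575 and 636 in Sox4, or 28.6 ± 11.4 against 37.2 ± 11.2 CPM. EV 2 stood above Sox4 2 and Sox4 3 in CPM, so the groups overlapped. The members below the filter, 42 of them with a count and at most 19 in a library, summed to 5.35 ± 2.67 CPM in EV and 7.61 ± 2.01 in Sox4. When no filter was applied, 3 more replication-dependent genes passed the threshold as higher in Sox4 (adjusted p from 0.00545 to 0.00855): H1f5 with 0, 1 and 0 counts against 6, 8 and 15, H2ac7 with 0, 0 and 0 against 7, 2 and 10, and H4c1 with 0, 1 and 0 against 10, 5 and 12.

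The sums of the classes differed in how far the groups stood apart. The 12 variant genes summed to 611 ± 49.0 CPM in EV and 929 ± 114 in Sox4, a ratio of 1.52 that became 2.10 with library size alone, and the groups did not overlap. The 67 replication-dependent genes summed to 327 ± 64.4 CPM in EV and 223 ± 27.8 in Sox4, a ratio of 0.683 that became 0.945 with library size alone. In this sum the groups overlapped, since EV 3 (253 CPM) lay just below Sox4 1 (255 CPM), and the ratio moved with the scaling. Shares within a library do not depend on it: replication-dependent genes made up 37.5%, 35.3% and 31.2% of histone counts in EV and 19.4%, 19.5% and 19.2% in Sox4. The Sox4 libraries were nearly identical in this share and all lay below every EV library.

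The make-up of histone counts shows where the shares went. H3f3a and H3f3b together made up 44.3% ± 2.65 of histone counts in EV and 66.7% ± 0.877 in Sox4. H1 genes of both classes went the other way, at 33.2%, 32.4% and 28.4% in EV and 12.7%, 11.1% and 12.8% in Sox4. Within the replication-dependent class, H1f2 made up 46.2% ± 5.48 of counts in EV and 27.0% ± 2.92 in Sox4, and H2bc4 made up 45.04% ± 6.41 and 56.6% ± 4.05. The 3 H2A variant genes held 6.64% ± 0.323 of histone counts in EV and 7.65% ± 0.723 in Sox4.

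**Figure D4:**
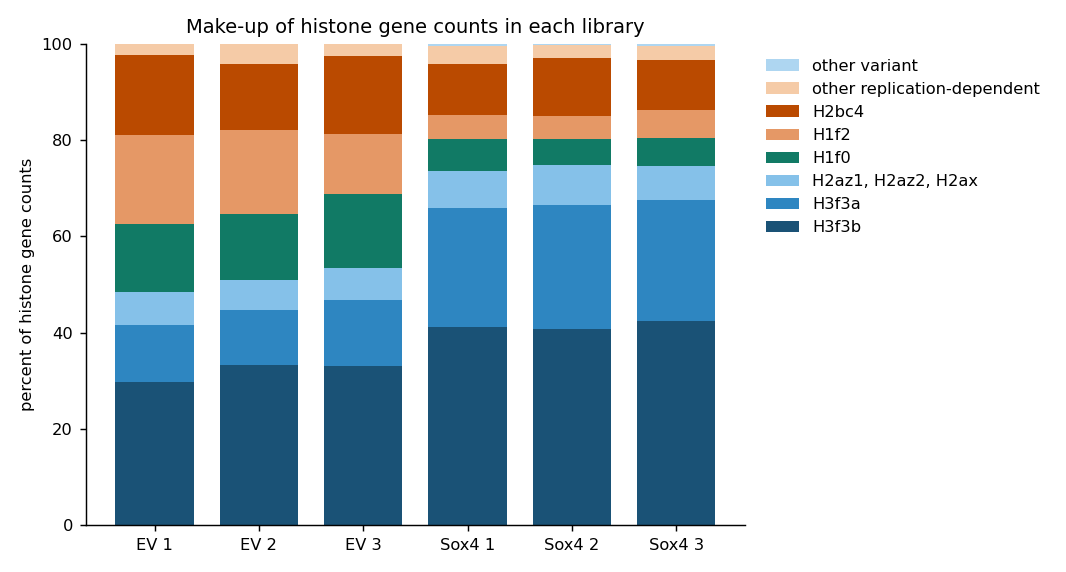
Stacked bars of the percent of histone gene counts in each of the 6 libraries, without pseudogenes. H3f3b and H3f3a (dark blues) fill 41.5% to 46.7% of the EV bars and 65.9% to 67.6% of the Sox4 bars, and H1f0 (green) with H1f2 (light orange) shrinks in every Sox4 bar.

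Genes around histone supply were described from lists of known roles. Of 22 genes that make or process replication-dependent histone mRNA, 21 were tested and 7 were higher, a share near the 29.0% of all genes tested. None was lower by edgeR (1 lower at an unadjusted p under 0.05), beside 26.0% of all genes, and the median log2 fold change was 0.30. Nfya, the regulatory subunit of NF-Y, rose by 1.84 (adjusted p = 4.65e-06), from 120, 127 and 119 counts in EV to 651, 596 and 698 in Sox4. Nfyb and Nfyc, the other NF-Y subunits, did not rise. Their log2 fold changes were -0.22 (adjusted p = 0.101) and -0.19 (adjusted p = 0.262). Npat, the coactivator that gathers at histone gene clusters, rose by 1.53 (adjusted p = 5.67e-05). Casp8ap2, which bridges to the processing machinery, rose by 0.74, Eri1, the exonuclease that trims histone mRNA ends, by 0.58, Srrt by 0.41 and the cleavage factor subunit Cpsf2 by 0.39. Slbp, which binds the stem-loop and was singled out after its values were seen, had 133, 162 and 130 counts in EV and 212, 172 and 201 in Sox4, with a log2 fold change of -0.11 (adjusted p = 0.599). With library size alone 14 of the 21 were higher.

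Histone chaperones and exchange factors carry histones to and from DNA. Of 35 tested, 21 were higher, beside 29.0% of all genes tested, and none was lower by edgeR (also none at an unadjusted p under 0.05), beside 26.0%. Their median was 0.45, and with library size alone 33 were higher. Chaf1b and Chaf1a, subunits of the CAF-1 complex that deposits H3 and H4 behind the replication fork, rose by 2.76 and 1.97. Asf1b, an H3-H4 chaperone of dividing cells, rose by 1.89 from at most 4 counts in an EV library. Mms22l, which acts at stalled replication forks, rose by 1.57. Vps72, the subunit that binds H2A.Z in exchange complexes, rose by 1.47, from 156, 148 and 140 counts to 846, 508 and 474.

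Of the listed factors that handle H3.3, singled out after their values were seen, Atrx had 672, 797 and 967 counts in EV and 2013, 2481 and 2483 in Sox4, with no overlap, and rose by 0.95 (adjusted p = 3.92e-04). Hira had 53, 72 and 44 counts in EV and 163, 148 and 101 in Sox4. Its log2 fold change was 0.71 (adjusted p = 0.0484), with groups that overlapped in CPM. Daxx, the partner of ATRX, had 186, 190 and 211 counts in EV and 314, 255 and 269 in Sox4, and its log2 fold change was -0.06 (adjusted p = 0.754). Cabin1, on the same list, had a log2 fold change of 0.17 and was not past the threshold.

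S phase and proliferation genes were higher in most cases. Of 30 tested, 23 were higher, beside 29.0% of all genes tested, and none was lower by edgeR (1 lower at an unadjusted p under 0.05), beside 26.0%. The median log2 fold change was 1.97. Mki67, a marker of cycling cells, had 2, 0 and 0 counts in EV and 276, 302 and 252 in Sox4, a ratio of 280 (95% counting interval 77.1 to 2312). Ccnb1 and Cdc6, with no count in EV, were at least 24.7-fold and 8.12-fold higher. Top2a and Uhrf1 rose by 4.35 and 5.05, and Gins2 had a ratio of summed counts of 15.04 (6.73 to 41.7).

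**Figure D5:**
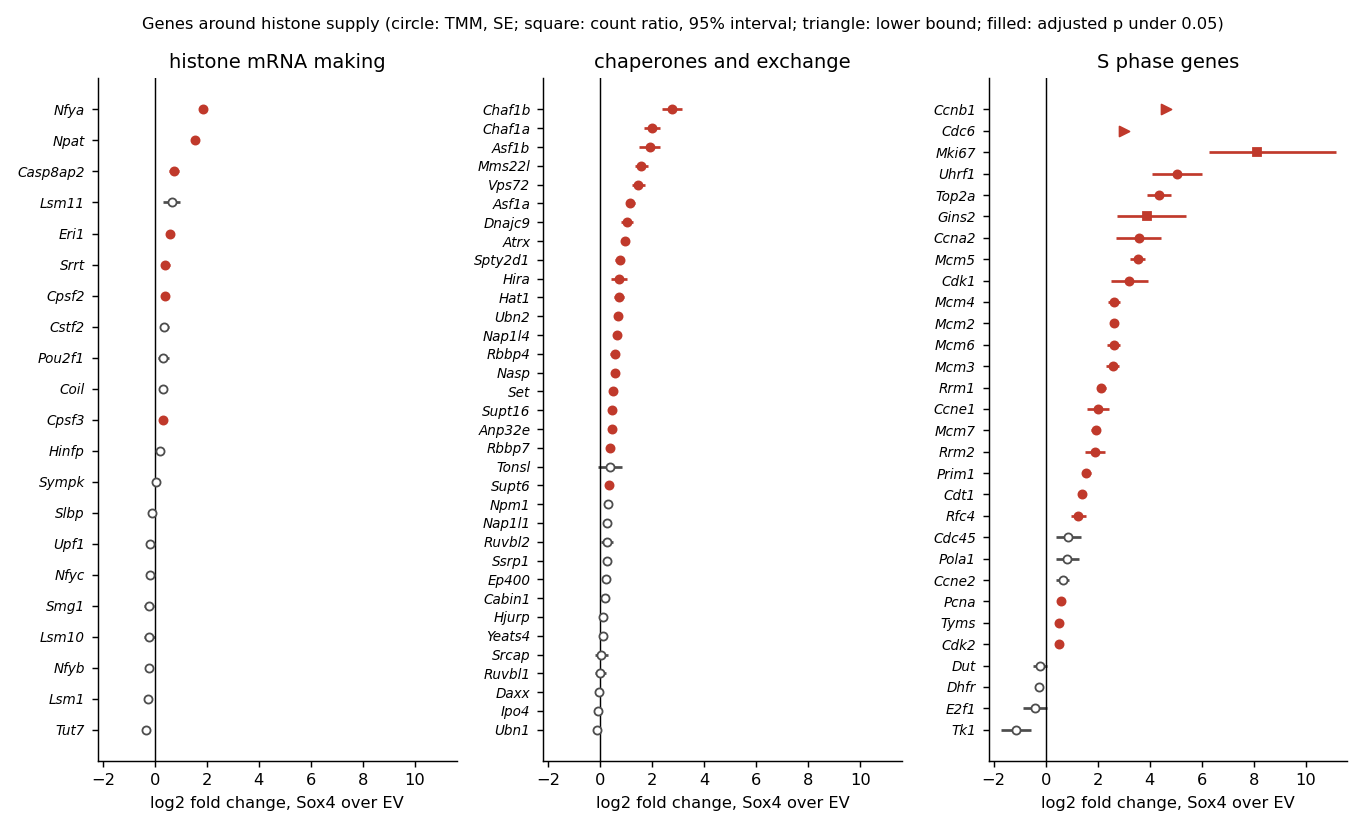
Log2 fold change of Sox4 over EV for genes that make histone mRNA (left), histone chaperones and exchange factors (middle) and S phase genes (right); circles are TMM-scaled values with SE, squares are ratios of summed counts with 95% counting intervals, triangles are lower bounds, and red filled symbols have an adjusted p under 0.05. The number higher is 7 of 21, 21 of 35 (34 plotted) and 23 of 30 from left to right.

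Histone genes whose symbols lie outside the naming rule gave 1 call among 4 tested, a share near the 29.0% of all genes called higher. Cenpa, which encodes the centromeric H3 variant, had 44, 45 and 28 counts in EV and 142, 138 and 165 in Sox4, and rose by 1.35 (SE 0.25, adjusted p = 0.00140). Macroh2a1 had a log2 fold change of 0.35 (adjusted p = 0.0650), H2aj of -0.01 (adjusted p = 0.969) and H2aw of 1.12 (adjusted p = 0.0578). None of the 4 was lower, also at an unadjusted p under 0.05, beside 26.0% of all genes lower by edgeR.

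Markers of other cells are given beside the 29.0% of all genes tested that were higher and the 26.0% that were lower. Kupffer cell markers were higher for 4 of 9 tested genes, and their summed level was 13.4 to 28.8 CPM in EV and 29.1 to 67.9 in Sox4. Stellate cell markers were higher for 3 of 5 (10.7 to 48.3 against 88.4 to 144 CPM) and cholangiocyte markers for 3 of 5 (27.7 to 43.8 against 72.9 to 85.6 CPM), with Krt7 and Krt19 at 0 in every EV library and at 1 to 9 counts in Sox4. Endothelial markers were higher for 2 and lower for 1 of 10 (22.8 to 40.7 against 19.7 to 50.2 CPM). Of 9 erythroid genes in the table, 3 had no count in any library and only 2, Alas2 and Klf1, passed the filter. Both were lower (list sum 95.9 to 129.5 against 5.68 to 16.2 CPM). The 1 tested lymphoid or neutrophil gene was not past the threshold (list sum 0.771 to 2.43 against 1.60 to 4.495 CPM). Hepatocyte markers were lower for 6 of 9, and for 4 with library size alone. The part of these markers in the histone results was not tested.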

How the data were processed

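Hepatocyte RNA was sequenced in 6 libraries, 3 EV and 3 Sox4, grouped by their labels. The deposited table held raw counts for each gene symbol. By the submitters' processing notes the authors aligned reads to GRCm39 with STAR 2.7.10b, counted them with featureCounts 2.0.1 and scaled them with DESeq2. Which annotation release was used, whether counting was stranded and how multi-mapping reads were treated are not given in the sources used here. The authors' normalized table was not used here.

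The analysis used edgeR 4.0.16 and limma 3.58.1 in R 4.3.3. Genes were kept by filterByExpr (minimum count 10, minimum total count 15), libraries were TMM-scaled, and the groups were compared by the two-sided quasi-likelihood F test of edgeR with robust dispersion. Benjamini-Hochberg adjustment covered the 12691 genes tested, with a threshold of 0.05. All adjusted p-values come from that fit unless another setting is named. The SE is that of the difference in mean log2 CPM with a prior count of 2. A count of 3 or fewer was the floor, at most 0.231 CPM in a library. Intervals and floors cover counting error only. The intervals pool the counts of the 3 libraries of a group and leave out the spread between libraries. Neither allows for PCR copies, which are not independent molecules. The edgeR fit alone was run on simulated counts, with genes changed by known folds in both directions. That simulation held no difference in scaling between the groups, so it does not bear on results that move with the scaling.

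Within a group, libraries differed beyond sampling noise (chi-square per degree of freedom 17.6 to 62.7), so each counted as a replicate. Named were tested histone genes that averaged 50 or more counts or passed the threshold, tested histones outside the rule, and up to 6 genes with the largest change past the threshold per list. Of the chaperone list, 1 gene is counted but not reported here. The members and lists were chosen with earlier results of these data known. Exon lengths, overlaps and shared 100-base windows were taken from GENCODE M21 on GRCm38, which matched 76 of 83 members. Alternatives were other scalings, DESeq2 1.42.0, limma-voom, other filters, the replicate number as a block, and each library left out.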

Additional observations from a re-analysis of the deposited data

How the results depend on the processing

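The 13 calls among histone genes were all kept with library size alone, with size factors of DESeq2 in edgeR, with no filter, with a minimum mean count of 10 and with the replicate block. DESeq2 shared 11 of them, limma-voom 12, and the fits without 1 library 10 to 12. Replication-dependent genes higher in Sox4 numbered 5, 8 with no filter (more genes tested), and 3 to 4 without 1 library (3 without EV 1 or EV 3). With library size alone the genes higher in Sox4 went from 7 to 14 for histone mRNA making and from 21 to 33 for chaperones. Without 1 library, 0 to 1 genes of histone mRNA making and 0 to 2 S phase genes were lower. The log2 fold change of H1f3 turned to 0.41 with library size alone, 0.10 with limma-voom, 0.071 with the replicate block and 0.14 without Sox4 2, and ranged from -0.39 to 0.64 without 1 library. That of H2bc4 turned to 0.27 with library size alone. That of H4c9 turned to 0.35 with library size alone, 0.079 with limma-voom, 0.026 with the replicate block and 0.0076 without Sox4 2, and ranged from -0.48 to 0.64 without 1 library. None of these passed the threshold, and the cause was not tested. DESeq2 gave H2bc9 an adjusted p of 0.0510 and H2az2 of 0.0584, and limma-voom gave H4c8 of 0.109. Of 221 values for single genes, 194 kept direction and call. Same-numbered libraries correlated in their deviations at 0.27, -0.09 and 0.13. With 3 libraries per group these values cannot decide whether the numbers pair the samples. With the replicate block 7362 genes were called against 6990, 1 S phase gene was lower, and no histone call changed. The 42 histone genes below the filter reached no more than 19 counts per library, and 3 of them were called with no filter.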
